A study of Drosophila melanogaster with 13 samples.

Results

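The genes described here encode enzymes of glycolysis, the pentose phosphate pathway and the tricarboxylic acid (TCA) cycle, measured in the proboscis of Drosophila melanogaster, the feeding organ whose tip, the labellum, carries taste neurons. Samples are labelled labellum, and the protocol names whole proboscises. They come from a list of 34 gene symbols of these pathways. Of these symbols 32 stood in the authors' tables, and 2 were found through RefSeq synonyms. ScsbetaA is the gene listed there as skap, which was also on the list, and ScsbetaG is listed as Sucb. The list therefore holds 33 genes of 13893, with 109 annotated transcripts. They comprise 14 glycolysis genes, among which Pepck of gluconeogenesis is counted, 5 pentose phosphate genes and 14 TCA genes. All 33 passed the filter on low counts in both comparisons.

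In the first experiment, flies of the genotype labelled parental ate, for 7 days, either food with added sugar (the sugar diet, n = 2) or plain cornmeal food (the control diet, n = 2), with 200 proboscises in each library. In the second, all flies carried the driver Gr5a-GAL4 and spent 7 days on the high sugar diet. They carried a UAS transgene for RNA interference (RNAi) against OGT (n = 5) or the driver over a wild-type chromosome (Gr5a-GAL4/+, the Gal4 control, n = 4), with 20 proboscises in each library. Flies of a comparison were matched in age per the labels, and the age itself is not given in the sources used here. Gr5a is a sweet taste receptor, so the driver acts in sweet taste neurons, which are few among the cells of a proboscis, and a change in those neurons is diluted in the RNA of the whole organ. The experiments used different library kits, so no level was compared between them. The replicates are called biological without an account of how the pools were formed. The p-values refer to the spread between these pools, which the test estimates for each gene in part from other genes.

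Glycolysis splits glucose into pyruvate in the cytosol and yields ATP and NADH. Lactate dehydrogenase turns pyruvate into lactate and restores NAD+. The pentose phosphate pathway branches off at glucose-6-phosphate. Its oxidative steps make NADPH, which fatty acid synthesis and antioxidant defence use, and its later steps make ribose phosphate and return carbon to glycolysis. The TCA cycle oxidises the acetyl group of acetyl-CoA in the mitochondrion and feeds electrons to the respiratory chain. In flies, muscle and nervous tissue are large users of these pathways, and the fat body stores the carbon as glycogen and triglyceride.

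Total estimated counts were 5632598 to 8105908 in the diet libraries and 8183507 to 13884994 in the libraries of the RNAi experiment. None of the 11 markers listed for the labelled tissue, among them the taste receptor genes Gr5a, Gr64f and Gr66a, was at 0 throughout an experiment. The gene targeted by the RNAi, sxc, which encodes OGT, had 137.8, 170.0, 133.5, 135.2 and 136.0 CPM (read counts scaled to a common library size) in the 5 OGT RNAi libraries, in the order of their replicate numbers. The 4 libraries of the Gal4 control had 163.4, 141.8, 170.4 and 173.5 CPM. The groups overlapped and sxc did not pass the test (log2 change -0.19, SE 0.09, adjusted p = 0.376), in RNA of the whole organ of which the targeted cells are a small share.

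Transcripts of aldolase were the most abundant of the set in both experiments. Levels between genes were compared in TPM, a relative abundance scaled for transcript length. On the control diet Ald (aldolase) had 1618 and 1746 TPM. It was followed by Eno (enolase) at 616.8 ± 22.6 TPM and Gapdh1 (glyceraldehyde-3-phosphate dehydrogenase) at 540.2 ± 54.2 TPM (mean ± SD, n = 2). The most abundant TCA transcripts on that diet were Nc73EF, a subunit of 2-oxoglutarate dehydrogenase, at 509.0 ± 21.6 TPM and Acon (aconitase) at 481.0 ± 23.7 TPM. Ald and Eno were apart from the genes below them in both libraries, whereas the values of Gapdh1 and Nc73EF overlapped, as did those of Nc73EF and Acon. The least abundant were Sucb, the beta subunit of the GDP-forming succinyl-CoA synthetase, at 5.00 ± 0.65 TPM and ImpL3 (lactate dehydrogenase) at 15.5 ± 0.89 TPM. Pentose phosphate genes ranged from 16.2 TPM for CG17333 to 63.2 TPM for Pgd.

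In the Gal4 control Ald came first at 1073 ± 86.7 TPM (n = 4), and Idh (the NADP-dependent isocitrate dehydrogenase) came next at 567.7 ± 31.5 TPM. Acon followed at 530.0 ± 54.2 TPM and Gapdh2, the other glyceraldehyde-3-phosphate dehydrogenase, at 508.8 ± 49.9 TPM. The values of these 3 genes overlapped across the 4 libraries. ImpL3 was the least abundant of the 33 genes at 9.86 ± 1.56 TPM, followed by Rpi (ribose-5-phosphate isomerase) at 14.1 ± 0.60 TPM and Hex-C (a hexokinase) at 17.6 ± 1.07 TPM. Within the pairs of genes for the same reaction, Hex-A had 4.40 and 4.57 times the TPM of Hex-C on the control diet and 6.59 and 6.86 times on the sugar diet. PyK (pyruvate kinase), whose product lactate dehydrogenase consumes, had 42.2 to 53.7 times the TPM of ImpL3 in the Gal4 control and 11.7 to 30.4 times in OGT RNAi. The groups did not overlap in either ratio. Other ratios were examined. Gapdh1 to Gapdh2 was 1.51 to 1.87 on the sugar diet and 1.59 to 1.69 on the control diet. It was 0.551 to 0.599 in OGT RNAi and 0.594 to 0.721 in the Gal4 control, so it overlapped in both experiments. Mdh2 to Mdh1 did not overlap on the diets (2.74 and 3.04 on sugar, 2.27 and 2.6 on control) and overlapped under RNAi. The ratio of skap to Sucb overlapped on the diets. It was 8.12 to 8.81 in OGT RNAi and 9.06 to 11.7 in the Gal4 control, without overlap. On the diets, with 2 libraries a group, 47.5% of all single genes tested did not overlap either.

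**Figure D1:**
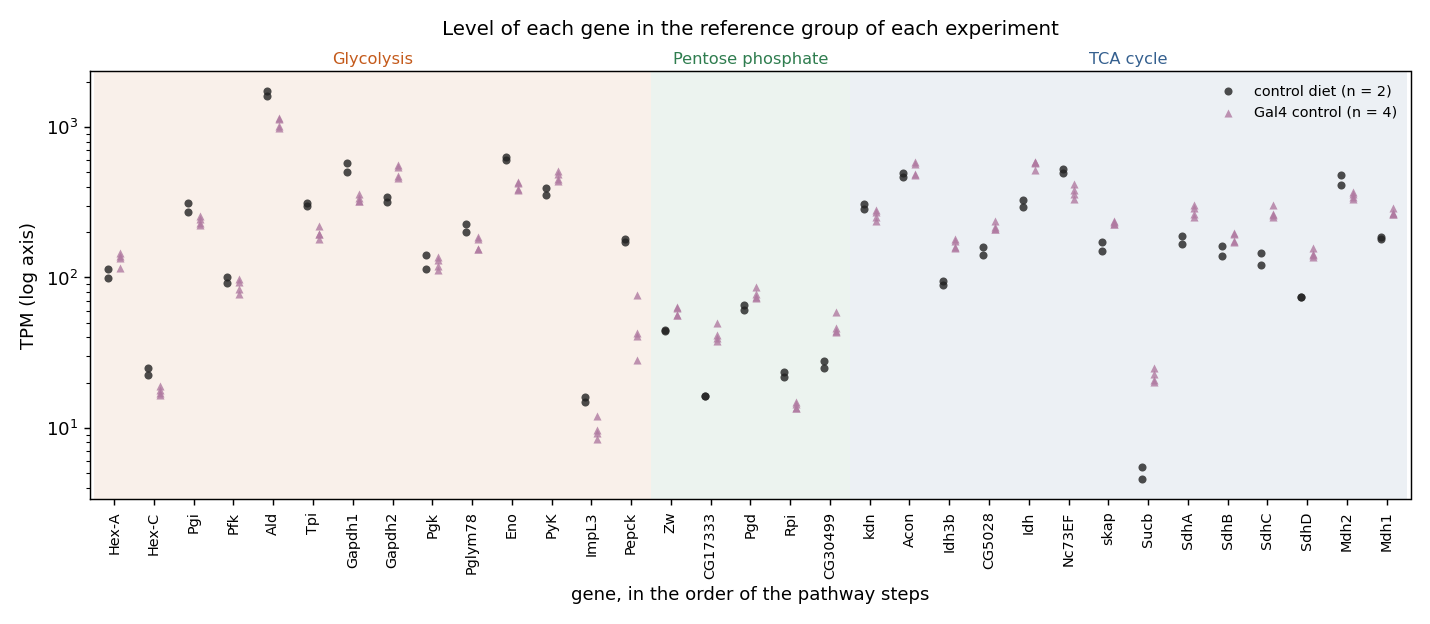
Level of each of the 33 genes in TPM (log axis) in each library of the control diet group (n = 2) and the Gal4 control group (n = 4), with genes on the x axis in the order of the pathway steps. Ald is highest in both groups, at 1682 TPM and 1073 TPM on average, and Sucb at 5.00 TPM on the control diet and ImpL3 at 9.86 TPM in the Gal4 control are lowest.

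The first comparison asked how 7 days on the high sugar diet altered transcripts of the proboscis. Transcripts of 9 of the 33 genes fell on the sugar diet and 0 rose. The genes that fell were 4 of the glycolysis list (Hex-C, Pgi, PyK and Pepck, a gene of gluconeogenesis). The others were 2 of the oxidative pentose phosphate pathway (Zw and Pgd) and 3 of the TCA list (Idh, skap and Mdh1). Of all 8825 genes tested, 3.35% were called lower, 3.12% higher and 6.47% in either direction. The threshold for a call was an adjusted p below 0.05, in edgeR's quasi-likelihood test with Benjamini-Hochberg adjustment over all genes tested. Of the 3 called TCA-list genes, Idh and Mdh1 encode enzymes that work wholly or partly in the cytosol.

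The pathways differed in the sign of their members' log2 changes. In glycolysis all 14 were negative, with a median of -0.17 and a range from -0.79 to -0.09. In the pentose phosphate pathway all 5 were negative, with a median of -0.42 and a range from -0.74 to -0.31. In the TCA list 6 were negative and 8 positive, with a median of 0.08 and a range from -0.40 to 0.27. Over all genes tested the median was 0.00, and 49.4% were negative. These signs depend on the scale. On log2(TPM + 0.5) the median over all genes moved to -0.27, the medians of the lists were -0.46, -0.70 and -0.21 in the same order, and the 8 positive TCA changes became negative. Arc1, named here after its values were seen, rose on the sugar diet. It had 140600 and 138800 CPM on the sugar diet and 70000 and 69180 CPM on the control diet, and its part in that shift was not tested.

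The values of the sugar and control libraries did not overlap in 22 genes that were lower and 7 that were higher on the sugar diet. Among all genes tested 47.5% were non-overlapping, 23.9% lower and 23.5% higher. The lower ones were 13 of the 14 glycolysis genes, all 5 pentose phosphate genes and 4 TCA genes. The 7 higher ones were all TCA genes. The tissue is a mixture of cell types, and in bulk RNA fewer cells of a type and less RNA per cell cannot be told apart.

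**Figure D2:**
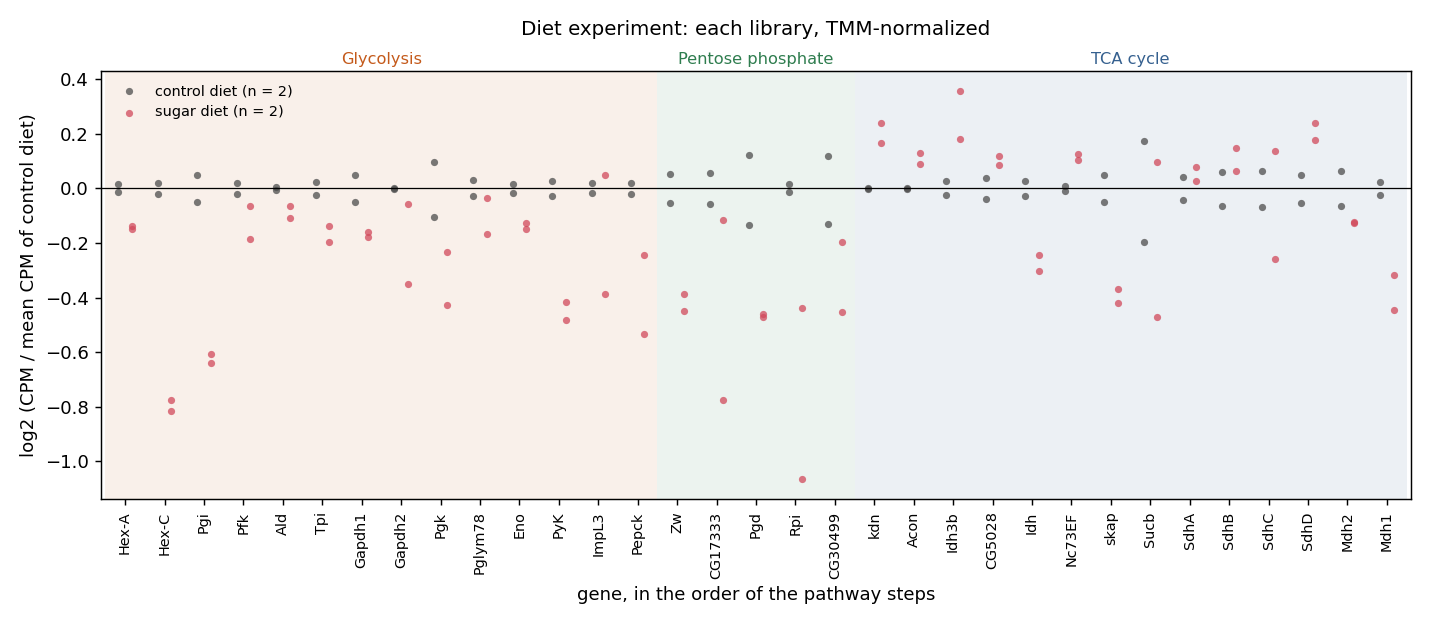
Each library of the diet experiment as log2 of its normalized CPM over the mean of the control diet libraries, for the 33 genes in the order of the pathway steps (control diet and sugar diet, n = 2 each; each point is a library). The sugar diet points of glycolysis and pentose phosphate genes lie below those of the control diet except for ImpL3, and 7 TCA genes lie wholly above them on this scale, whose changes are negative on the TPM scale.

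At the entry of glycolysis, Hex-C fell and Hex-A did not pass the test. Hexokinase traps glucose in the cell as glucose-6-phosphate, and Hex-C is the form known from the fly fat body. Hex-C (2R, 15218837 to 15220329) had 11.7 and 12.0 CPM on the sugar diet and 20.3 and 20.8 CPM on the control diet. Its log2 change was -0.79 (SE 0.17, adjusted p = 0.00898), the most negative of the glycolysis genes. Hex-A had 195.1 and 193.8 CPM against 216.8 and 212.4 CPM (log2 change -0.14, SE 0.08, adjusted p = 0.372). Both control libraries were above both sugar libraries in each gene, by a wide margin in Hex-C.

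Pgi, which interconverts glucose-6-phosphate and fructose-6-phosphate at the branch point to the pentose phosphate pathway, had the smallest adjusted p of the set. Pgi (2R, 8910900 to 8914069) had 260.9 and 266.8 CPM on the sugar diet and 392.2 and 419.7 CPM on the control diet. The groups were far apart relative to their spread, with a log2 change of -0.62 (SE 0.08, 95% interval -0.78 to -0.46, adjusted p = 5.79e-05), that is a decrease to 0.65-fold. Pfk (phosphofructokinase, the main regulated step) had 191.9 and 176.5 CPM against 197.7 and 203.5 CPM (log2 change -0.12, SE 0.08, adjusted p = 0.475).

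The middle steps of glycolysis were not called. Ald, which cleaves fructose-1,6-bisphosphate, had 1390 and 1433 CPM on the sugar diet and 1505 and 1494 CPM on the control diet (log2 change -0.09, adjusted p = 0.631). Tpi (triose phosphate isomerase) had 171.6 and 178.7 CPM against 200.0 and 193.6 CPM (log2 change -0.17, adjusted p = 0.283). In both genes the sugar libraries were below the control libraries, and the 95% intervals of the log2 change were -0.25 to 0.08 and -0.33 to 0.00. The paralogues for glyceraldehyde-3-phosphate dehydrogenase, which can share reads, gave like values. Gapdh1 had 365.5 and 361.1 CPM against 394.7 and 422.4 CPM (log2 change -0.17, adjusted p = 0.248), and Gapdh2 had 203.2 and 248.9 CPM against 258.5 and 259.6 CPM (log2 change -0.19, adjusted p = 0.276). Sugar diet replicate 1 was the lowest library of Gapdh2. Without it the log2 change of Gapdh2 was -0.057, and without sugar diet replicate 2 it was -0.35 and called (adjusted p = 0.000471).

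Of the later steps, pyruvate kinase fell. Pgk (phosphoglycerate kinase, which makes ATP) had 96.5 and 84.4 CPM on the sugar diet and 105.6 and 121.5 CPM on the control diet. Its log2 change of -0.33 (SE 0.10) just missed the threshold with an adjusted p of 0.0604. Pglym78 (phosphoglycerate mutase) had 105.4 and 115.4 CPM against 115.8 and 120.6 CPM (log2 change -0.10, adjusted p = 0.645). In both genes the sugar libraries were the lower ones, in Pglym78 by a narrow margin. Eno had 596.6 and 607.0 CPM against 669.5 and 654.8 CPM (log2 change -0.14, adjusted p = 0.363). Pyruvate kinase makes pyruvate and ATP at the last step, and its gene PyK (3R, 22367536 to 22372746) had 316.5 and 331.6 CPM on the sugar diet and 434.4 and 450.4 CPM on the control diet. The groups were well separated, with a log2 change of -0.45 (SE 0.08, adjusted p = 0.00119).

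The genes beyond pyruvate kinase differed. ImpL3, named Ldh in the newer annotation, had 9.09 and 12.3 CPM on the sugar diet and 11.8 and 12.1 CPM on the control diet. It was the glycolysis gene whose groups overlapped (log2 change -0.14, SE 0.21, adjusted p = 0.804). Pepck, the phosphoenolpyruvate carboxykinase of gluconeogenesis, which works against glycolysis, had 184.8 and 226.1 CPM against 271.3 and 263.7 CPM. Its log2 change was -0.38 (SE 0.09, adjusted p = 0.0174), and without sugar diet replicate 1 it was -0.24. All of its 2486 exonic bases lie in CG45087, which has identical counts in every library, so the values of the pair are not separable. In the lists of related genes, fbp, the fructose-1,6-bisphosphatase of gluconeogenesis, fell as well, from 20.4 and 19.1 CPM on the control diet to 8.90 and 10.9 CPM on the sugar diet (log2 change -0.99, adjusted p = 0.00328).

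In the pentose phosphate pathway both NADPH-making dehydrogenases fell. Zw (glucose-6-phosphate dehydrogenase, X, 19667252 to 19672353), the entry step, had 42.1 and 40.3 CPM on the sugar diet and 57.0 and 53.1 CPM on the control diet. Pgd (6-phosphogluconate dehydrogenase, X, 2145136 to 2148566) had 45.5 and 45.9 CPM against 68.7 and 57.5 CPM. Both sugar libraries lay below both control libraries in each gene, more narrowly in Pgd for control diet replicate 2. The log2 changes were -0.42 (SE 0.12, adjusted p = 0.0382) for Zw and -0.46 (SE 0.12, adjusted p = 0.0238) for Pgd. The ratio of Pgd to Zw in TPM was 1.34 and 1.44 on the sugar diet and 1.35 and 1.49 on the control diet, so these values overlapped.

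The other pentose phosphate members are transcripts of low abundance and did not pass the test. CG17333, the lactonase between the dehydrogenases, had 4.15 and 6.56 CPM on the sugar diet and 7.38 and 6.82 CPM on the control diet (log2 change -0.38, SE 0.28, adjusted p = 0.539). Rpi had 9.88 and 6.40 CPM against 13.3 and 13.5 CPM (log2 change -0.74, SE 0.23, adjusted p = 0.0647). CG30499, the ribulose-5-phosphate epimerase, had 9.09 and 10.9 CPM against 13.5 and 11.4 CPM (log2 change -0.31, SE 0.21, adjusted p = 0.498). In all 3 the sugar libraries were the lower ones, and their counts were low. The 95% interval was -1.22 to -0.26 for Rpi, which leaves out 0, -0.97 to 0.21 for CG17333 and -0.74 to 0.13 for CG30499. Rpi was called in 5 of 11 alternative analyses. Without sugar diet replicate 1 the log2 change was -1.06 for Rpi and -0.11 for CG17333, and without sugar diet replicate 2 it was -0.44 and -0.77. Of 3 other pentose phosphate genes found, 2 passed the filter on low counts and both fell; the third, CG5103, had at most 0.32 CPM in the diet libraries and was not tested. Taldo (transaldolase) had 51.8 and 47.8 CPM on the sugar diet and 102.4 and 95.0 CPM on the control diet (log2 change -0.99, adjusted p = 7.63e-06). CG8036, a transketolase, had 176.1 and 193.4 CPM against 299.1 and 317.4 CPM (log2 change -0.74, adjusted p = 1.86e-05).

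The first steps of the TCA cycle had positive changes that were not called. Citrate synthase, which joins acetyl-CoA to oxaloacetate, is encoded by kdn, with 540.3 and 513.8 CPM on the sugar diet and 458.0 and 456.5 CPM on the control diet (log2 change 0.20, SE 0.08, adjusted p = 0.137). Acon had 869.0 and 891.6 CPM against 817.0 and 814.5 CPM (log2 change 0.11, adjusted p = 0.501). Sugar libraries were the higher ones in both genes in CPM. The mitochondrial NAD-dependent isocitrate dehydrogenase has several subunits. Its beta subunit gene Idh3b had 130.1 and 115.1 CPM against 103.3 and 99.7 CPM (log2 change 0.27, SE 0.09, adjusted p = 0.0982). Its gamma subunit gene CG5028 had 165.3 and 161.6 CPM against 148.2 and 156.5 CPM (log2 change 0.10, adjusted p = 0.588). As in kdn and Acon, the sugar libraries of both subunit genes lay above the control libraries. On the TPM scale the log2 changes of these genes were -0.076 for kdn, -0.17 for Acon, -0.002 for Idh3b and -0.18 for CG5028.

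The NADP-dependent isocitrate dehydrogenase, which makes NADPH outside the cycle proper, fell. Idh (3L, 8356404 to 8360906) had 257.8 and 247.3 CPM on the sugar diet and 299.6 and 311.0 CPM on the control diet. Both sugar libraries were below both control libraries, and the log2 change was -0.27 (SE 0.08, adjusted p = 0.0403). Idh was called in 4 of 11 alternative analyses. Nc73EF, the next step of the cycle, had 1365 and 1347 CPM against 1259 and 1245 CPM (log2 change 0.11, adjusted p = 0.481, and -0.19 on the TPM scale).

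Succinyl-CoA synthetase makes ATP or GTP directly, depending on its beta subunit. The ADP-forming subunit gene skap (3R, 8938724 to 8943027) had 138.8 and 134.1 CPM on the sugar diet and 173.2 and 185.5 CPM on the control diet. The groups were apart, and skap fell by 0.40 on the log2 scale (SE 0.08, adjusted p = 0.00658), the most negative change of the TCA list. Sucb, the GDP-forming counterpart, had 4.74 and 3.20 CPM against 5.00 and 3.87 CPM. These values overlapped, and at such low counts the 95% interval ran from 0.54-fold to 1.44-fold (log2 change -0.17, SE 0.33, adjusted p = 0.854). The alpha subunit gene Scsalpha, a related gene picked with its values in view, had 66.2 and 69.9 CPM against 75.1 and 69.1 CPM and was not called (log2 change -0.08, adjusted p = 0.752).

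The genes of succinate dehydrogenase, which is also complex II of the respiratory chain, were not called. SdhA, the flavoprotein, had 297.1 and 307.6 CPM on the sugar diet and 282.6 and 300.2 CPM on the control diet (log2 change 0.05, adjusted p = 0.795). SdhB, the iron-sulfur protein, had 107.5 and 114.0 CPM against 98.4 and 107.4 CPM (log2 change 0.11, adjusted p = 0.615). The groups overlapped in SdhA and nearly touched in SdhB. Of the membrane anchors, SdhC had 35.0 and 46.0 CPM against 39.9 and 43.8 CPM (log2 change -0.04, adjusted p = 0.93). SdhD had 39.3 and 41.1 CPM against 36.0 and 33.5 CPM (log2 change 0.21, adjusted p = 0.434). SdhC overlapped and SdhD did not. On the TPM scale SdhA, SdhB and SdhD had log2 changes of -0.22, -0.17 and -0.063.

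The last step of the cycle has a mitochondrial and a cytosolic enzyme, and the cytosolic one fell. Mdh2, the mitochondrial malate dehydrogenase, had 311.0 and 312.1 CPM on the sugar diet and 324.6 and 354.6 CPM on the control diet (log2 change -0.12, SE 0.08, adjusted p = 0.45). Mdh1 (2L, 10393774 to 10396332), the cytosolic enzyme of the malate-aspartate shuttle, had 96.5 and 88.1 CPM against 122.2 and 118.0 CPM. Sugar libraries were below control libraries in both genes, and Mdh1 fell by 0.38 on the log2 scale (SE 0.09, adjusted p = 0.0147). The transaminase genes of that shuttle, among the related genes, fell too. Got1 had 102.6 and 94.6 CPM against 176.0 and 154.3 CPM (log2 change -0.74, adjusted p = 5.84e-05), and Got2 had 129.3 and 144.2 CPM against 269.5 and 266.2 CPM (log2 change -0.97, adjusted p = 1.16e-06).

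**Figure D3:**
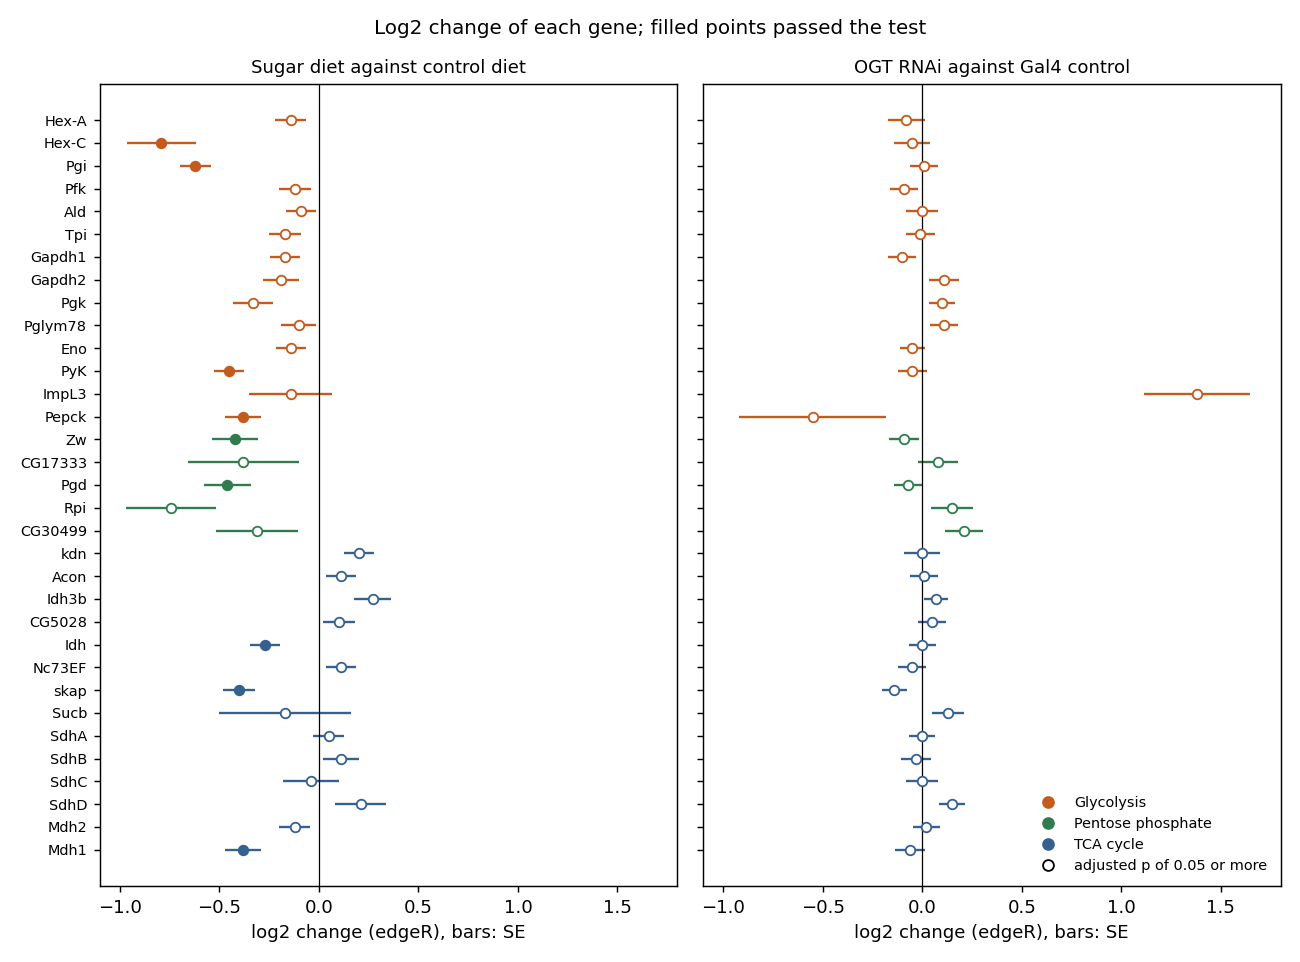
Log2 change of each of the 33 genes with its SE (horizontal bars) in the edgeR fit, for the sugar diet against the control diet (left, n = 2 and 2) and OGT RNAi against the Gal4 control (right, n = 5 and 4). Filled points passed the test: 9 genes on the left, all negative, and 0 on the right, where ImpL3 at 1.38 and Pepck at -0.55 stand apart from the other 31 genes between -0.14 and 0.21.

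Related genes outside the list, grouped by pathway, were tested in the same fit. Of 10 tested genes of glycolytic side branches, 6 fell, with a median log2 change of -0.48 over the 10. They were UGP (UTP-glucose-1-phosphate uridylyltransferase, -0.87), Pgm (phosphoglucomutase, -0.71), AGBE (glycogen branching enzyme, -0.61), GlyP (glycogen phosphorylase, -0.27), fbp, and Pfrx, which makes an activator of phosphofructokinase (-0.34). Glycogen synthase, GlyS, was not called (-0.22, adjusted p = 0.179). Of 10 tested genes at the entry of pyruvate into the mitochondrion, 2 fell, PCB (pyruvate carboxylase, -0.46) and CG9396 (-1.06), and the median was 0.09. Of 10 tested genes around the TCA cycle, 4 fell. These were Got1, Got2, Men (the NADP-dependent malic enzyme, -0.47, adjusted p = 0.0075) and ATPCL (ATP citrate lyase, -0.90, adjusted p = 8.99e-06), and the median was -0.07. The genes for the alpha subunit of NAD isocitrate dehydrogenase (l(1)G0156, 0.01) and for fumarase (l(1)G0255, 0.26) were not called, and both were named after their values were seen. None of the 32 tested related genes rose in this comparison, counting 2 more of the pentose phosphate pathway. Before adjustment 17.7% of all genes had a p under 0.05, against 15 of the 33 listed genes.

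Markers of other cell types moved with the diet. All 5 tested fat body markers fell (8 listed). Their summed level was 4300 to 4610 CPM on the sugar diet and 6930 CPM in both control libraries. Of the fat body storage protein genes, Lsp2, Lsp1alpha and Lsp1gamma were under 1 CPM in every diet library. Lsp1beta, one of the markers that fell, had 17.2 and 18.9 CPM on the sugar diet and 43.3 and 49.1 CPM on the control diet. Its log2 change was -1.35 (adjusted p = 1.27e-05). Of 11 tested muscle markers (12 listed) 6 rose, with sums of 31900 to 37400 CPM against 25700 to 26200 CPM. Of 4 glial markers 2 rose (1040 to 1060 against 852 to 939 CPM), of 8 neuronal markers 1 fell (841 to 873 against 855 to 890 CPM), and of 4 tested haemocyte markers 1 rose (85.8 to 113 against 65.9 to 68.7 CPM), with He at 0. Of the 10 tested markers of the labelled tissue 1 fell, Obp49a, with a median log2 change of -0.33 and sums of 1580 to 1850 against 2080 to 2110 CPM, which did not overlap. The gut marker Jon25Bi fell, with a summed gut list of 21 to 30.5 CPM against 47.1 to 48.3 CPM. The part of these shifts in the changes of the metabolic genes was not tested.

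The calls of the diet comparison rest on 2 libraries a group. With a library left out, its group holds 1 library, which is assumed to vary like the other group. A gene's own spread then comes from that other group alone, and the test draws on other genes as well. Without control diet replicate 1, 2 of the 33 genes were called, Pgi and PyK, and calls over all genes went from 275 higher and 296 lower to 77 and 118. Without control diet replicate 2, 2 were called, Pgi and Pgd, with 97 and 131 over all genes. The genes that lost the call kept negative log2 changes. Without control diet replicate 1 these were -0.81 for Hex-C, -0.44 for skap, -0.37 for Zw, -0.36 for Mdh1 and Pepck, -0.33 for Pgd and -0.30 for Idh. Without sugar diet replicate 1, 11 were called lower, with Pgk and Rpi added. Without sugar diet replicate 2, 9 were called lower, with Gapdh2 added and Zw lost (adjusted p = 0.0577), and kdn and Idh3b were called higher. Pgi was called in all 11 alternative analyses, PyK in 10, Pgd in 9, Hex-C and skap in 8, Pepck in 7, Mdh1 in 6, Zw in 5 and Idh in 4. In the authors' deposited table for the diet comparison, 8 of the 33 genes had a q-value under 0.05, all with a negative effect. These were the 9 genes named above without Pepck, which had a q-value of 0.136 in the authors' deposited table.

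The second comparison asked how OGT RNAi in sweet taste neurons altered transcripts on the sugar diet. Of the 33 genes 0 were called. Among all 9399 genes tested 1.27% were called, 1.04% higher and 0.223% lower. DESeq2 called 1 of the 33, ImpL3, and so did limma on TPM. Before adjustment 4 of the 33 had a p under 0.05 (ImpL3, CG30499, skap and SdhD), against 12.9% of all genes. The groups did not overlap in 1 of the 33, ImpL3, which was higher, against 5.54% of all genes, 3.73% higher and 1.81% lower. Log2 changes were negative in 17 of the 33 genes and in 49.2% of all genes. The median log2 change was -0.03 in glycolysis, 0.08 in the pentose phosphate pathway and 0.00 in the TCA list, and 0.00 over all genes tested.

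ImpL3 had the largest positive change of the 33 genes. Lactate dehydrogenase is low in adult flies and is best known from larval growth, where it lets glycolysis run fast. ImpL3 (3L, 6259105 to 6262694) had 36.4, 24.6, 17.6, 17.1 and 33.9 CPM in the RNAi libraries, replicate 1 first. In the control libraries, in the same order, it had 9.15, 12.2, 10.4 and 8.55 CPM. Every RNAi library was above every control library, replicates 1 and 5 the most and replicates 3 and 4 the least. The means were 25.9 ± 8.96 CPM (n = 5) and 10.1 ± 1.61 CPM (n = 4), a 2.60-fold difference (log2 change 1.38, SE 0.27, 95% interval 0.77 to 1.99). Its adjusted p of 0.052 just missed the threshold.

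The call of ImpL3 depended on the analysis. It was called in 7 of 16 alternative analyses, with log2 changes from 1.20 to 1.49 and adjusted p from 1.4e-07 to 0.169. The calls included those with DESeq2, an offset for transcript length, limma on TPM and a fit of all 13 libraries, and those without OGT RNAi replicate 3 (adjusted p = 0.0363) or 4 (adjusted p = 0.0199). In the authors' deposited table it had an effect of 0.909 on the natural-log scale, that is 1.31 on the log2 scale, with a q-value of 1.33e-05. The gut marker Jon25Bi had 0, 35.0, 32.5, 83.7 and 4.16 CPM in the RNAi libraries, replicate 1 first, and 67.3, 88.2, 110.9 and 84.4 CPM in the controls. It was lowest in replicates 1 and 5, the libraries with the most ImpL3, and its part in the result was not tested. The whole gut list summed to 0.363 to 84.2 CPM in the RNAi libraries and 67.6 to 111 CPM in the controls, with 1 of 4 found markers tested and 0 called.

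**Figure D4:**
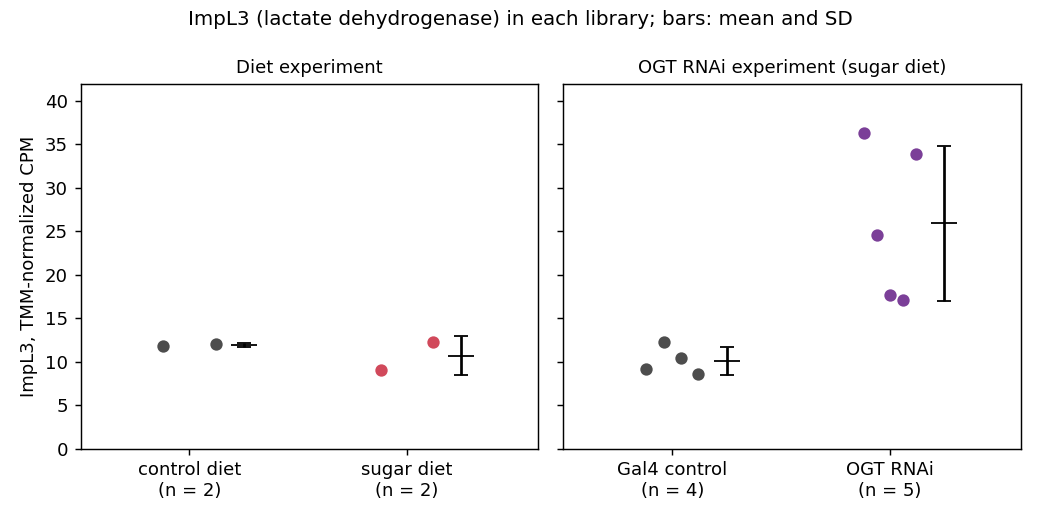
Normalized CPM of ImpL3 in each library of the diet experiment (left, n = 2 and 2) and of the RNAi experiment (right, n = 4 and 5), with the mean and SD as bars. The 5 OGT RNAi libraries lie between 17.1 and 36.4 CPM, above the 4 Gal4 control libraries between 8.55 and 12.2 CPM, and the diet groups overlap. The experiments used different kits, so the panels are not compared with each other.

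Pepck had the largest SD relative to its mean of the 33 genes in both groups of this experiment. It had 45.2, 48.9, 46.9, 70.9 and 100.3 CPM in the RNAi libraries and 53.5, 78.3, 85.6 and 149.4 CPM in the control libraries, replicate 1 first in both. The groups overlapped widely, and its log2 change of -0.55 (SE 0.37, adjusted p = 0.61) had a 95% interval from -1.41 to 0.30. Without Gal4 control replicate 4, the highest library, the log2 change was -0.21, and without OGT RNAi replicate 5 it was -0.80.

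For the other 31 genes the data limit any change in RNA of the whole organ to a narrow range. Their log2 changes lay between -0.14 and 0.21. Their 95% intervals, each for a single gene, lay between -0.28 and 0.42, that is 0.82 to 1.34-fold. The lowest adjusted p was 0.338. These bounds do not hold for the targeted neurons, whose changes are diluted in that RNA. Pgi, the gene with the smallest adjusted p in the diet comparison, had 426.6, 404.9, 409.8, 437.6 and 480.4 CPM in OGT RNAi and 433.0, 453.7, 412.6 and 413.6 CPM in the Gal4 control (95% interval of the log2 change -0.13 to 0.16). The groups overlapped. PyK had 641.9 to 778.9 CPM in OGT RNAi and 690.3 to 767.2 CPM in the Gal4 control (interval -0.21 to 0.11). Zw had a median of 87.9 CPM against 95.5 CPM (interval -0.26 to 0.07), and Pgd had 86.1 to 100.2 CPM against 91.2 to 108.5 CPM (interval -0.23 to 0.08). The groups overlapped in PyK, Zw and Pgd as well.

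The 3 genes with the next smallest p also overlapped. CG30499 had 31.3 to 37.2 CPM in OGT RNAi and 26.3 to 36.2 CPM in the Gal4 control (log2 change 0.21, SE 0.10, adjusted p = 0.361). The ADP-forming synthetase gene skap had 283.8 to 320.0 CPM against 318.2 to 337.2 CPM (log2 change -0.14, SE 0.06, adjusted p = 0.355). SdhD had 92.1 to 100.7 CPM against 79.8 to 92.4 CPM (log2 change 0.15, SE 0.07, adjusted p = 0.338). In skap and SdhD the ranges overlapped by a single library of either group. In CG30499 Gal4 control replicate 2 lay among the RNAi libraries.

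The remaining glycolysis genes had log2 changes of -0.08 for Hex-A, -0.05 for Hex-C, -0.09 for Pfk, 0.00 for Ald, -0.01 for Tpi, -0.10 for Gapdh1, 0.11 for Gapdh2, 0.10 for Pgk, 0.11 for Pglym78 and -0.05 for Eno. None of their 95% intervals reached beyond 0.82-fold or 1.20-fold. In the pentose phosphate pathway CG17333 had a log2 change of 0.08 and Rpi of 0.15. In the TCA list kdn, Idh, SdhA and SdhC had log2 changes that rounded to 0.00, and Acon (0.01), Mdh2 (0.02), SdhB (-0.03), CG5028 (0.05), Nc73EF (-0.05), Mdh1 (-0.06), Idh3b (0.07) and Sucb (0.13) were also close to it. The signs of the values nearest 0 changed with the scaling.

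The genes that fell on the sugar diet had these log2 changes under OGT RNAi, where both groups were on the sugar diet: -0.05 for Hex-C, 0.01 for Pgi, -0.05 for PyK, -0.55 for Pepck, -0.09 for Zw, -0.07 for Pgd, 0.00 for Idh, -0.14 for skap and -0.06 for Mdh1. None of these was called. Of the related genes 0 were called either. UGP had the smallest p of the side branches of glycolysis (log2 change -0.23, adjusted p = 0.212), ahead of Pfrx (-0.11, adjusted p = 0.591). In the pentose phosphate pathway CG8036 (-0.32, adjusted p = 0.158) came before Taldo (-0.12, adjusted p = 0.606). At the entry of pyruvate CG9396 (-0.25, adjusted p = 0.288) came before PCB (-0.21, adjusted p = 0.45), and around the TCA cycle ATPCL (-0.13, adjusted p = 0.501) came before Got2 (-0.12, adjusted p = 0.522). No list of cell type markers had a called gene in this comparison, and the fat body markers summed to 3740 to 5120 CPM in OGT RNAi and 4820 to 5320 CPM in the Gal4 control.

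**Figure D5:**
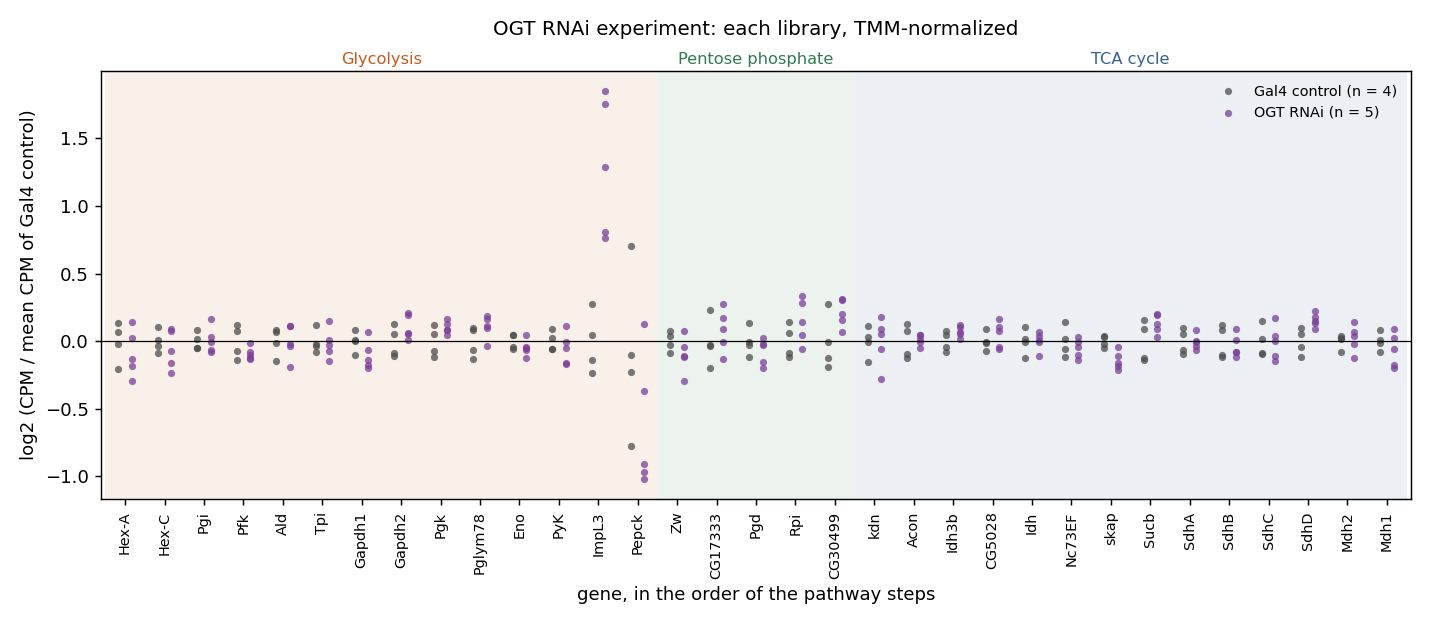
Each library of the RNAi experiment as log2 of its normalized CPM over the mean of the Gal4 control libraries, for the 33 genes in the order of the pathway steps (Gal4 control n = 4, OGT RNAi n = 5; each point is a library). ImpL3 is the gene whose groups do not overlap, Pepck spreads most, and the other genes stay near 0.

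Of the annotated transcripts of Pgi, FBtr0088681 held 96.7% of the gene's TPM on the sugar diet and 98.3% on the control diet, and the authors' deposited table gives this transcript an effect of -0.453 (natural log) with a q-value of 3.39e-06. FBtr0084213 held 82.3% and 85.3% of PyK, with an effect of -0.356 and a q-value of 0.0019 in the authors' deposited table. The mean level of these transcripts was 151.9 TPM on the sugar diet and 288.1 TPM on the control diet for Pgi, and 185.5 and 317.8 TPM for PyK, on a scale on which the median of all genes also moved down. FBtr0077008 held 98.6% of ImpL3 in OGT RNAi and 97.1% in the Gal4 control, with an effect of 0.924 and a q-value of 8.45e-06 in the authors' deposited table. In the diet libraries, where ImpL3 had 9.09 to 12.3 CPM, another transcript, FBtr0332066, was given 92.1% and 65.4% on average. Shares of such overlapping isoforms are unsure. In Pglym78, FBtr0100482 held from 0 to 73.0% in single OGT RNAi libraries and from 44.7 to 83.1% in the Gal4 control, while the gene had 119.9 to 139.9 CPM and 112.2 to 131.5 CPM (log2 change 0.11, adjusted p = 0.597).

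Reads could not be assigned with certainty in some genes. Pepck and CG45087 lie on the same strand. Also on the same strand, Rpi shares 139 of 1259 exonic bases with CR30409, and Nc73EF shares 63 of 5344 with Obp73a. Exons of several members overlap genes on the opposite strand, and the sources used here do not say whether counting used the strand. Eno shares 362 of 3718 exonic bases with Rrp40, Nc73EF 294 of 5344 with Cpr73D, and CG5028 158 of 2376 with the ribosomal protein gene RpL27. Among the genes that fell on the sugar diet, Pgd shares 104 of 1895 with bcn92, Zw 369 of 2512 with an antisense RNA and skap 74 of 2282 with CG11964. Hex-C lies inside CG8079 on the opposite strand and shares no exonic base with it.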

How the data were processed

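RNA from 13 proboscis pools was sequenced in the 2 experiments described above. Per the submitters' processing notes, Trimmomatic 0.22, kallisto 0.43 and sleuth were used. Genome build, annotation and whether counting used the strand are not given in the sources used here. The authors deposited, for each library, estimated counts and TPM for every transcript with its effective length, and tables of sleuth effects (natural log), p-values and q-values. Estimated counts were summed per gene through the gene column of the authors' deposited tables and rounded, since 71.8% of the non-zero estimates differed from a whole number by over 0.001. Targets without a gene, 0.042 to 0.0569% of the counts, were left out.

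Each comparison was fitted on its own libraries with edgeR 4.0.16 (filterByExpr with a minimum of 10 counts and 15 in all, TMM scaling, robust quasi-likelihood test) in R 4.3.3, with Benjamini-Hochberg adjustment over all genes tested. CPM values are scaled by TMM library sizes and were tabulated with pandas 2.3.3. In simulated counts for the diet comparison, with 8679 genes tested, 47.8% of 1.5-fold, 70.1% of 2-fold and 92.4% of 4-fold changes were called. For the RNAi comparison, with 9335 genes tested, the shares were 64.2%, 91% and 100%. Unchanged genes gave 11 false calls in the diet simulation and 9 in the RNAi simulation. The changed genes were drawn at random from all genes that passed the filter, so the shares are not those of the listed genes. A count of 0 allows up to 0.216 to 0.533 CPM (3 counts), and this covers counting error only.

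The alternatives were DESeq2 1.42.0, upper-quartile scaling, no filter, an effective length offset, limma 3.58.1 on log2(TPM + 0.5), which understates the change of low genes, a single fit of all 13 libraries, a replicate block and leaving out each library. The listed genes are all named with their values. Of related genes those called are named, or up to 2 per list with the smallest p, and exceptions are stated. The members and lists were chosen with earlier results of these data known. Gene positions are those of the authors' deposited table and are identical in BDGP6, from whose annotation exon overlaps were taken. Chi-square values per gene between replicates of a group were 7.24 to 36.4, so no library was a duplicate of another in its group. Pairs across groups were not compared in this way.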

Additional observations from a re-analysis of the deposited data

Results flagged for a closer look

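The CPM values of the 33 genes were examined within the OGT RNAi and the Gal4 control group, 66 sets in all, and 1 set had a library far from the others. Mdh2, the mitochondrial malate dehydrogenase, had 320.6 CPM in Gal4 control replicate 4 and 343.7 to 348.2 CPM in the other 3 Gal4 control libraries, a gap of 0.838 of the whole range. Chance flags about 1 in 20 such sets. The log2 change of Mdh2 under OGT RNAi was 0.02 with that library and -0.002 without it, and neither was called.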

How the results depend on the processing

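Over the log2 changes of the 33 genes in each alternative, 308 diet values kept their direction and side of the threshold, 31 lost the call, 11 gained it and 13 changed sign. For OGT RNAi 473 kept both, 8 gained a call and 47 changed sign, with values close to 0. The cause was not tested except where stated. Against 275 genes called higher and 296 lower on the sugar diet, DESeq2 called 180 and 163, limma on TPM 59 and 446, and the fit of all libraries 150 and 168. Leaving out a library gave 77 to 473 higher and 118 to 465 lower, 0 to 2 of the 33 genes higher and 2 to 11 lower. DESeq2 called 4 of the 33 lower and the fit of all libraries 5. In limma on TPM all genes had a median of -0.27, and the list medians were -0.46 in glycolysis, -0.70 in the pentose phosphate pathway and -0.21 in the TCA list. The pentose phosphate median was -0.47 to -0.33 with a library left out. The TCA changes that turned negative on TPM were kdn (-0.076), Acon (-0.17), Idh3b (-0.002), CG5028 (-0.18), Nc73EF (-0.19), SdhA (-0.22), SdhB (-0.17) and SdhD (-0.063).

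For OGT RNAi, against 98 genes called higher and 21 lower, DESeq2 called 165 and 101. Limma called 60 higher, no filter 35 lower and the fit of all libraries 49 lower. With a library left out 36 to 142 were higher and 5 to 122 lower. Of the 33 genes, 1 was called higher by DESeq2, the length offset, limma and the fit of all libraries, and 0 to 1 with a library left out. Signs changed for kdn (-0.002) and Idh (-0.006) in DESeq2, and for Ald (0.008), SdhA (0.007) and SdhC (0.007) with upper-quartile scaling. They also changed for SdhC (0.008) with the length offset, and in limma for Pgi (-0.024), kdn (-0.035), Acon (-0.021), Idh (-0.028) and Mdh2 (-0.011). Leaving out a library gave log2 changes that crossed 0 on the diet for ImpL3 (-0.39 to 0.049), SdhC (-0.26 to 0.14) and Sucb (-0.46 to 0.1). They crossed 0 under RNAi for Tpi (-0.068 to 0.031), kdn (-0.056 to 0.062), SdhA (-0.038 to 0.03), SdhC (-0.063 to 0.035), Ald (-0.061 to 0.037), Idh (-0.037 to 0.038), Pgi (-0.035 to 0.035), Acon (-0.028 to 0.041), Mdh2 (-0.02 to 0.059) and SdhB (-0.073 to 0.009).

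Replicate numbers did not pair the samples. The correlation of same-numbered deviations was 0.165, -0.249, -0.021 and -0.047 for the RNAi pairs and 0.005 for the diet pairs. The diet pairs give a single value, because the deviations of 2 libraries from their mean mirror each other. With the replicate block 358 genes were called higher and 370 lower on the sugar diet, 11 of the 33 among the latter. Under RNAi the replicate block gave 64 higher and 24 lower, with 1 of the 33 higher (ImpL3) and 1 lower (Pepck, -0.72), and Pgi at -0.034, Ald at 0.038 and Idh at -0.014.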

Other observations

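Enzymes that make NADPH stand in the pentose phosphate and TCA lists and among the related genes. This grouping was made after the values were seen. Zw, Pgd, Idh and Men fell on the sugar diet, with log2 changes of -0.42, -0.46, -0.27 and -0.47, whereas Men-b, another malic enzyme gene, was not called (log2 change -0.04, SE 0.10, adjusted p = 0.906). Of 11 alternative analyses, Pgd was called in 9, Zw in 5 and Idh in 4. ATPCL and FASN1, 2 genes of fatty acid synthesis that were also picked with their values in view, fell as well. ATPCL had 75.3 and 86.8 CPM on the sugar diet and 156.5 and 147.0 CPM on the control diet, and FASN1, a fatty acid synthase, had 417.3 and 438.8 CPM against 1002 and 1019 CPM. FASN1 is also one of the 5 tested fat body markers, all of which fell. Under OGT RNAi FASN1 had 397.3 to 765.8 CPM and 678.0 to 892.7 CPM in the Gal4 control, and these values overlapped.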
